A study of Mus musculus with 4 samples.

Results

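Axonemal dyneins are the motors that make cilia and sperm flagella beat. The genes described here encode the dynein heavy, intermediate and light chains of the axoneme, the factors that dock the arms onto the microtubule doublets, and the cytoplasmic factors that assemble the arms. They were chosen by name: every row of the expression table whose symbol begins with Dnah and a digit, plus 18 named genes. The rule found 34 of the 53465 genes in the table. They were 5 outer arm heavy chains, 10 inner arm heavy chains, 5 intermediate and light chains, 5 docking and attachment factors, 8 assembly factors and 1 antisense RNA, Dnah2os, which the symbol rule also caught. The RNA-seq libraries were made from whole testes of male mice at postnatal day 18, on a mixed C57BL/6 and ICR background. The groups were 2 wild-type libraries and 2 libraries from mice with a conditional knockout (cKO) of Sympk. Sympk encodes symplekin, a scaffold of the machinery that forms mRNA 3' ends, and the study asked how transcript levels differ between these genotypes. The knockout was driven by Stra8-Cre. Stra8 drives this recombinase in germ cells of the testis as they approach meiosis, so the somatic cells keep Sympk. The sources used here do not say whether the control mice carried a floxed allele or Cre, how many animals a library holds, or whether the libraries come from separate animals. The p-values therefore measure only the spread between these libraries, which may be technical.

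Heavy chains are large ATPases that pull on the neighbouring microtubule doublet. Intermediate and light chains hold the heavy chains together and place them in the arm. Outer arms sit on a docking complex, and dynein arms are put together in the cytoplasm by assembly factors, which act with chaperones before the arms enter the cilium or flagellum. In the testis, germ cells begin to transcribe many axonemal genes as spermatocytes, well before the flagellum is built in spermatids. Airway cilia and sperm flagella use different outer arm heavy chains: Dnah5, Dnah9 and Dnah11 are known from airway cilia, and Dnah8 and Dnah17 from sperm.

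Library totals ran from 32730868 to 41584389 counts. Mitochondrially encoded genes took 4.01% to 4.93% of the counts in wild type and 8.81% to 10.2% in cKO. Sympk itself was at 16.5 and 14.6 FPKM in wild type and 14.4 and 15.6 FPKM in cKO, and the genotype effect of -0.28 on the log2 scale (SE 0.141) missed the threshold (adjusted p = 0.132, edgeR). FPKM is the count scaled to gene length and library total. Counts over the whole gene do not separate deleted exons from the rest, so these values say little about the labels. The samples carried testis markers: 12 of 12 pachytene spermatocyte markers were detected in every library and fell in cKO. Among them, Pgk2 and Meikin passed the filter on low counts through their wild-type levels alone, so they had to differ. The summed level of the 12 markers was 1770 to 1894 FPKM in wild type and 30.7 to 43.5 FPKM in cKO. Of 16 Sertoli cell markers 15 rose, with a summed level of 511 to 558 FPKM in wild type and 1338 to 1449 FPKM in cKO. Over all genes tested, 34.3% were lower in cKO and 29.2% were higher. In whole tissue, fewer cells of a type and less RNA per cell cannot be told apart. How far these marker shifts account for the dynein gene values was not tested.

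Most of the axonemal dynein genes fell in cKO testes. Of the outer arm heavy chains 2 of 5 fell, the antisense RNA did not pass, and every gene of the other roles fell. Of the 34 genes, 30 were lower in cKO, 0 were higher and 4 did not pass the test. Among all 21822 genes tested, 34.3% were lower and 29.2% were higher, or 63.4% in either direction. At least 16-fold falls were fitted for 21 of the 34 genes, against 9.23% of all genes, and at least 4-fold falls for 28, against 16.7% of all genes. The median log2 fold change was -5.08 for the 34 genes and -0.02 for all genes tested. The 30 genes that fell kept between 0.375% and 48.7% of their mean wild-type FPKM, with a median of 3.07%. Genes were called at a Benjamini-Hochberg adjusted p under 0.05 over all genes tested, from the quasi-likelihood test of edgeR. All 34 genes passed the filter on low counts. Dnah3, Armc4 and Pih1d3 passed it through their wild-type level alone, so they had to differ, and Dnah2os passed through cKO alone. Dnah3, Armc4 and Pih1d3 are counted in the falls of at least 16-fold and 4-fold and in the median given above. Of the 30 that passed through both groups, 27 fell. With 3 of the 4 libraries, the number of genes called lower ran from 29 to 31. In library-scaled counts (CPM with TMM factors), the wild-type libraries were both above the cKO libraries for 31 genes and both below them for 1, Dnah2os. Groups that do not overlap were found for 83.8% of all genes tested.

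**Figure D1:**
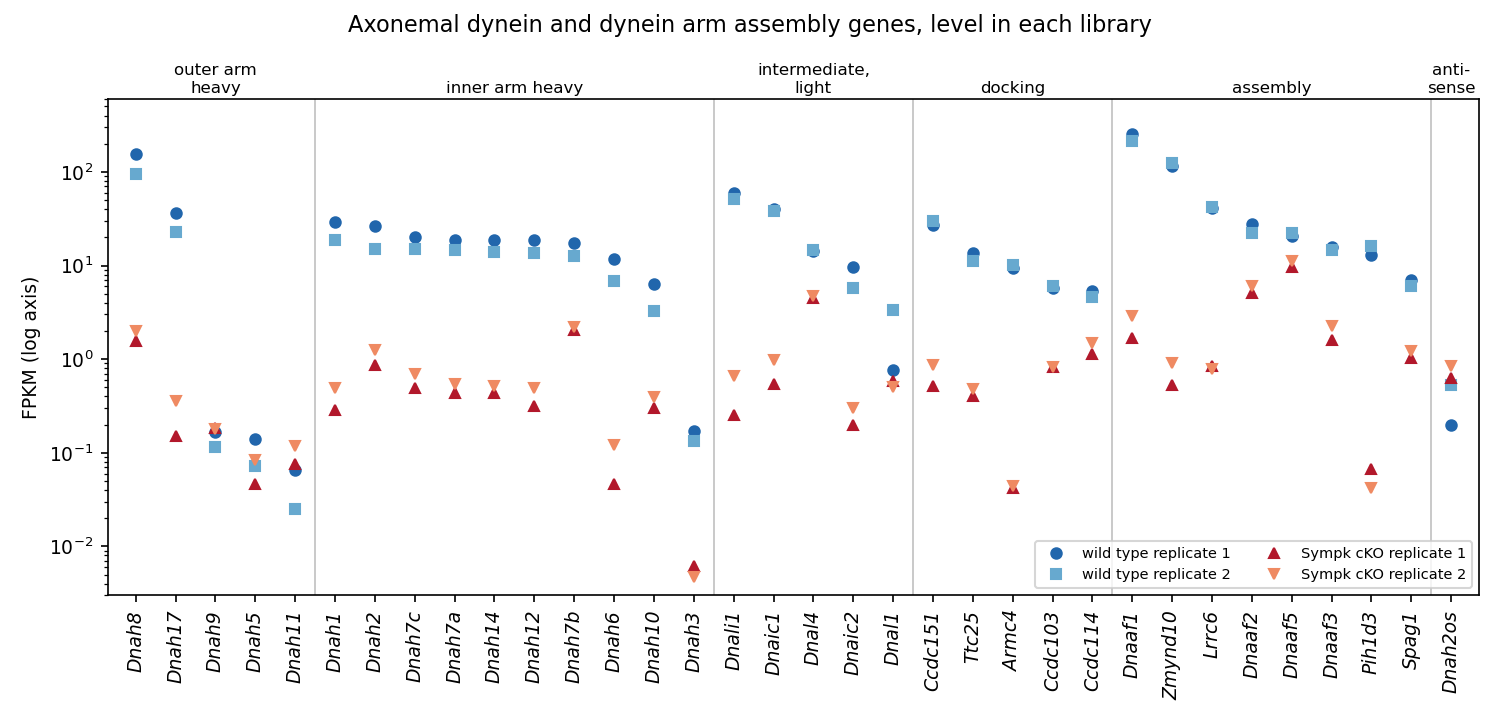
Level of each of the 34 genes in each of the 4 libraries, in FPKM on a log axis, ordered by role and then by mean wild-type level. Each symbol is 1 library. The 2 cKO libraries lie far below the 2 wild-type libraries for most genes, while for Dnah9, Dnah5 and Dnah11 the groups lie much closer to each other. For Dnah9 and Dnah11 both cKO libraries lie above both wild-type libraries in FPKM.

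Because most of these genes fell together, their promoters were read for motifs of regulators of ciliary and meiotic genes. RFX factors bind the X-box of ciliary genes, A-MYB (encoded by Mybl1) drives pachytene transcription, and CREM binds cAMP response elements in male germ cells. RefSeq promoter windows (GRCm38.p6) were matched for 26 of the 34 genes, each from 250 bases before to 50 after the transcript start. No window was matched for Dnah3, Ttc25, Armc4, Dnaaf1, Lrrc6, Pih1d3, Spag1 or Dnah2os. Both strands were searched. The X-box core GTTNCC was in 18 of 26 windows, against 45.3% of all 32851 windows. The longer X-box form, GTNNCC and GGNNAC with any NN between them, can overlap the core. It was in 3 of 26 windows (Ccdc151, Dnaaf5 and Zmynd10), against 1.88% of all windows. The A-MYB motif AACTGNC was in 8 of 26 windows, against 12.8% of all windows. The CRE core TGACG was in 5 of 26, against 20.8%, and TGACGTCA was in 1, Dnah6, against 1.79%. A match is a description of the letters and not a bound site. Of the windows printed here, Zmynd10, Ccdc151 and Dnaaf5 hold the long X-box form. Their log2 fold changes were -7.62, -5.60 and -1.26, so the genes with this form include the smallest of the 30 called falls. Dnah8 holds the X-box core and is the heavy chain with the highest wild-type level, and Dnah9 holds the core and did not pass the test. The Dnah8 window begins at base 30626686, inside the counted gene, which starts at base 30624354. Capitals mark matches to the X-box core or its longer form, to AACTGNC and to TGACGTCA. The windows of Dnah17, Dnah1, Dnah11, Dnah14, Ccdc114, Dnal1 and Dnal4, which are not printed, hold none of these matches. In Zmynd10 an X-box core and an A-MYB match overlap at the 3' end of the window.
Zmynd10 (assembly factor, lower; chr9:107547054-107547353, plus strand): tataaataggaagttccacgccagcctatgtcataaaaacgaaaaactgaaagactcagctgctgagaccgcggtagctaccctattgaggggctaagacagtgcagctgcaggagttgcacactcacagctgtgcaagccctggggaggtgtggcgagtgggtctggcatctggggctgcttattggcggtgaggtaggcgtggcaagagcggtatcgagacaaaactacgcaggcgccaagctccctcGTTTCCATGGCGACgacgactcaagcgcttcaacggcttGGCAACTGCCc
Ccdc151 (docking factor, lower; chr9:22002585-22002884, minus strand): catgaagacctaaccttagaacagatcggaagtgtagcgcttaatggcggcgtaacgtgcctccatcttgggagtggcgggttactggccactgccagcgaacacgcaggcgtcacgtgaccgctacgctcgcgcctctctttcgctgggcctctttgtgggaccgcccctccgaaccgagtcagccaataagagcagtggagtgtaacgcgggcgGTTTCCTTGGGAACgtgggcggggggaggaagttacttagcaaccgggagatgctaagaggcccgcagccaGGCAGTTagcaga
Dnaaf5 (assembly factor, lower; chr5:139149985-139150284, plus strand): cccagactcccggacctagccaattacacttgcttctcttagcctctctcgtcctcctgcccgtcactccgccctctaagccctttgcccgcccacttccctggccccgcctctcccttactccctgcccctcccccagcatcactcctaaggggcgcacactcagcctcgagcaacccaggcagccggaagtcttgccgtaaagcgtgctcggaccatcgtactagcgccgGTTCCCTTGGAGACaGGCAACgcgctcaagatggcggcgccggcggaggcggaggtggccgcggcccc
Dnah8 (outer arm heavy chain of sperm, lower; chr17:30626686-30626985, plus strand): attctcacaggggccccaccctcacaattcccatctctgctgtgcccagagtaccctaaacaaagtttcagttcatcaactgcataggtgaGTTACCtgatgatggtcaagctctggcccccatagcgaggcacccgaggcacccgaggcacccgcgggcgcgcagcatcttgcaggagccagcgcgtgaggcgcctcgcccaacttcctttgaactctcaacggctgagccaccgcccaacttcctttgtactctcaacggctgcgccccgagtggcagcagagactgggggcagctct
Dnah9 (outer arm heavy chain of airway cilia, not called; chr11:66168502-66168801, minus strand): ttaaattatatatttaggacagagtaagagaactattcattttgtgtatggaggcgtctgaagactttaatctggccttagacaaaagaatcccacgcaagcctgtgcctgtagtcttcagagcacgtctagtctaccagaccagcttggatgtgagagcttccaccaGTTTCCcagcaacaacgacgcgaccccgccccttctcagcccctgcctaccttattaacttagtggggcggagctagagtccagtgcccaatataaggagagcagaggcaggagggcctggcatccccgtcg

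Among the outer arm heavy chains, those of sperm flagella fell and those of airway cilia did not pass the test on the TMM scale. With scaling to Sertoli markers, Dnah5 and Dnah9 also passed as lower. Dnah8 (ENSMUSG00000033826, chromosome 17, 30624354 to 30875264, GRCm38) was at 157 and 94.6 FPKM in the wild-type libraries and 1.57 and 2.0 FPKM in the cKO libraries. Both wild-type libraries were far above both cKO libraries, and the log2 fold change was -6.37 (SE 0.347, adjusted p = 3.69e-05, edgeR). Dnah17 (chromosome 11, 118021723 to 118130634) was at 36.6 and 22.7 FPKM in wild type and 0.150 and 0.356 FPKM in cKO, a log2 fold change of -7.13 (SE 0.503, adjusted p = 9.75e-05, edgeR). The cKO libraries differed by more than 2-fold for Dnah17, and without cKO replicate 2 its value was -7.80. Per length, Dnah8 exceeded Dnah17 in every library, by 4.28 and 4.17 times in wild type and by 10.4 and 5.64 times in cKO. On the opposite strand, Dnah8 overlaps Glo1 over 2518 bases and Dnah17 overlaps Pgs1 over 2289 bases. In cKO Glo1 had 2004 and 1391 counts and Pgs1 had 1800 and 1684. The strand setting of the counting is not given, so the cKO levels of Dnah8 and Dnah17 may hold some of these reads.

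The airway-type chains were low in every library, at 14 to 141 counts. Dnah9 had 128 and 81 counts in wild type and 141 and 108 in cKO, which is 0.166 and 0.116 against 0.186 and 0.178 FPKM. Its log2 fold change was 0.14 (SE 0.287, adjusted p = 0.684, edgeR), a direction that turned to -0.13 without wild-type replicate 2. With scaling to Sertoli markers it was -0.97 and passed (adjusted p = 0.0292, edgeR). Dnah5 had 92 and 43 counts in wild type and 30 and 43 in cKO, or 0.141 and 0.0728 against 0.0468 and 0.0840 FPKM. The groups overlapped in FPKM. In CPM with TMM factors they did not, at 2.43 and 1.21 in wild type and 0.701 and 1.18 in cKO. The fitted Dnah5 value of -0.96 (log2, SE 0.459) missed the threshold (adjusted p = 0.111, edgeR). Without wild-type replicate 2 it was -1.40 and passed (adjusted p = 0.0484, edgeR), and without wild-type replicate 1 it was -0.38. With scaling to Sertoli markers Dnah5 was at -2.06 and passed (adjusted p = 0.00747, edgeR). Dnah11 had 41 and 14 counts in wild type and 46 and 58 in cKO, or 0.0660 and 0.0248 against 0.0751 and 0.119 FPKM. The fitted value of 0.84 (log2, SE 0.518) missed the threshold (adjusted p = 0.2, edgeR). Without wild-type replicate 1 the Dnah11 value was 1.74 and passed (adjusted p = 0.0409, edgeR), and without wild-type replicate 2 it was 0.27. Dnah11 overlaps Cdca7l on the opposite strand over 725 bases and may hold some of its reads. Cdca7l had 855 and 889 counts in wild type and 937 and 1054 in cKO. A test that Dnah5, Dnah9 and Dnah11 miss does not show that they stayed level.

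The balance between the sperm-type and airway-type outer arm chains was set against itself within each library, which removes the effect of library scaling. The summed FPKM of Dnah8 and Dnah17 was 517 and 549.8 times that of Dnah5, Dnah9 and Dnah11 in the wild-type libraries. In the cKO libraries it was 5.58 and 6.20 times. The groups lay far apart, with a difference of -6.50 on the log2 scale. The exact permutation test gave p = 0.33 (two-sided, n = 2 per group), the smallest that 2 against 2 libraries allow. The summed level of the airway-type chains was 0.374 and 0.213 FPKM in wild type and 0.308 and 0.381 FPKM in cKO. That of Dnah8 and Dnah17 was 193 and 117 FPKM in wild type and 1.72 and 2.36 FPKM in cKO. Unlike the ratio, these sums depend on the library scaling, so how much of the change lies in each part depends on it too.

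**Figure D2:**
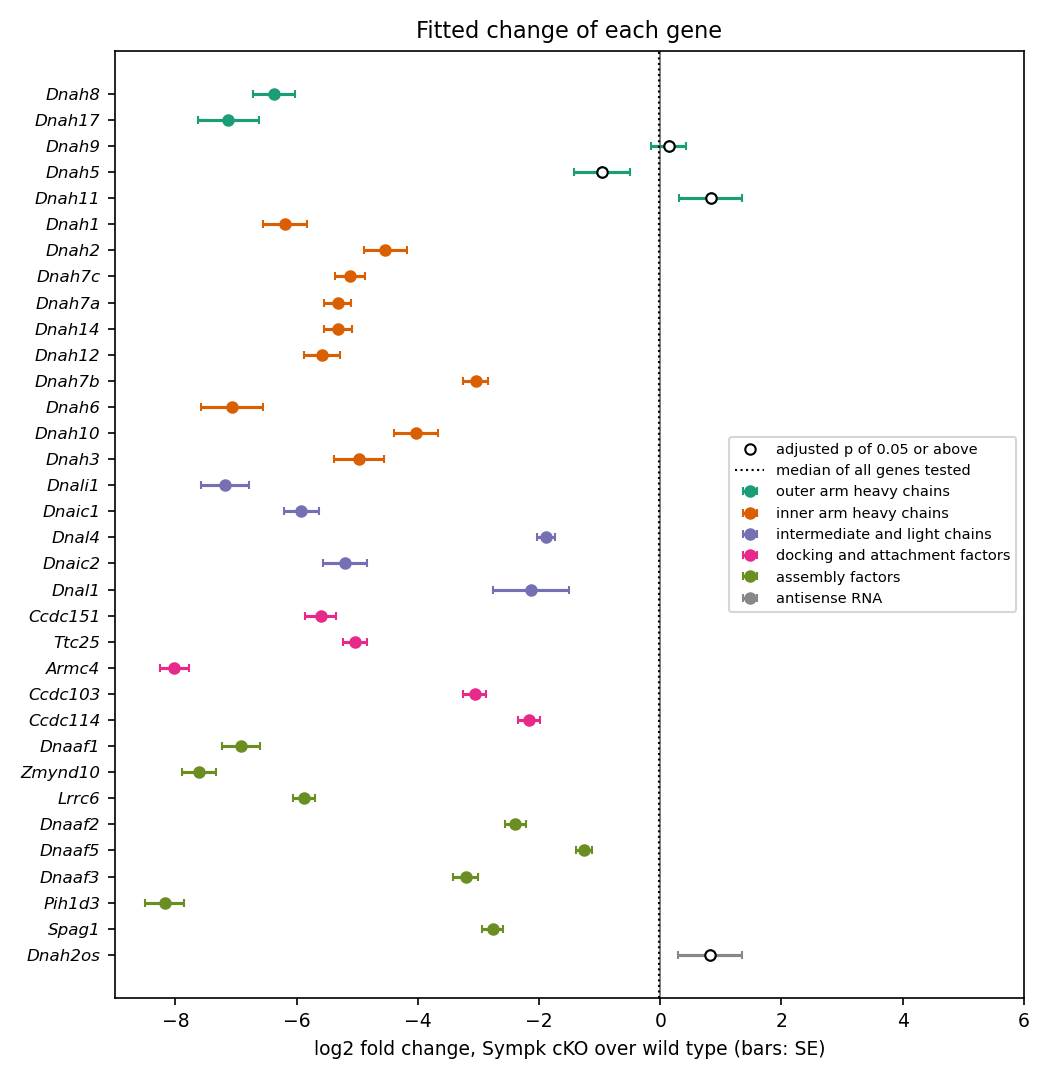
Fitted log2 fold change of cKO over wild type for each gene, with the SE as bars and colours by role; open circles mark genes with an adjusted p of 0.05 or above, and the dotted line is the median of all genes tested, -0.02. Dnah9, Dnah5, Dnah11 and Dnah2os lie between -0.96 and 0.84, and the other genes lie between -8.18 and -1.26.

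All 10 inner arm heavy chains fell, with a median log2 fold change of -5.22 and a range from -7.07 to -3.04. Of all genes tested, 34.3% fell. Dnah1, needed for the sperm inner arms, was at 29.3 and 18.8 FPKM in wild type and 0.288 and 0.489 FPKM in cKO (log2 fold change -6.19, SE 0.367). Dnah2, which pairs with Dnah10 in the double-headed inner arm, was at 26.6 and 14.9 FPKM in wild type and 0.872 and 1.24 FPKM in cKO (log2 fold change -4.54, SE 0.350). Its partner Dnah10 was lower in level, at 6.35 and 3.29 against 0.301 and 0.394 FPKM. The Dnah2 to Dnah10 ratio in FPKM was 4.19 and 4.54 in wild type and 2.90 and 3.15 in cKO. Dnah6 fell from 11.8 and 6.85 to 0.0466 and 0.121 FPKM, the lowest share of wild type among the inner arm chains (0.899%). Without cKO replicate 2 its log2 fold change of -7.07 became -7.81. Dnah12 and Dnah14 had similar wild-type levels, at 18.9 and 13.6 FPKM and at 18.9 and 13.9 FPKM, and both fell, with log2 fold changes of -5.58 and -5.32. The arm that Dnah14 belongs to is less well established. Dnah3 was the least abundant inner arm chain, with 140 and 100 counts in wild type against 5 and 3 in cKO, or 0.171 and 0.135 against 0.00620 and 0.00466 FPKM. Dnah3 passed the filter on low counts through wild type alone, so it had to differ.

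The Dnah7 copies on chromosome 1 had near-equal wild-type levels in FPKM and unequal levels in cKO. Dnah7a was at 18.9 and 14.6 FPKM in wild type and 0.435 and 0.549 FPKM in cKO (log2 fold change -5.32, SE 0.223, adjusted p = 1.68e-05, edgeR). Dnah7c was at 20.3 and 15.1 FPKM in wild type and 0.498 and 0.70 FPKM in cKO (log2 fold change -5.12, SE 0.253). Dnah7b, named after its values were seen, was at 17.2 and 12.6 FPKM in wild type and 2.05 and 2.19 FPKM in cKO (log2 fold change -3.04, SE 0.204). In wild type the Dnah7b to Dnah7a ratio was 0.910 and 0.866, and in cKO it was 4.71 and 3.98. The Dnah7c to Dnah7a ratio stayed between 1.04 and 1.27 in the 4 libraries. These ratios depend on the length behind the FPKM, 21222 bases for Dnah7b, 12851 for Dnah7a and 13575 for Dnah7c. The longest GENCODE Dnah7b transcript has 12314 bases. In counts, Dnah7b had 15190 and 10115 in wild type, against 10105 and 7074 for Dnah7a. In cKO it had 1780 and 1519, against 229 and 231. Which part of Dnah7b holds these reads was not tested. The copies share sequence: 40.3% of the 50-base words of the longest GENCODE Dnah7a transcript, 48.4% of those of Dnah7b and 48.5% of those of Dnah7c also occur in a transcript of another gene. Most of the shared words lie in the other copies, so the split of reads among them depends on counting rules that the sources do not give. For no other heavy chain was that share above 0.677%.

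Intermediate and light chains fell in 5 of 5 cases, against 34.3% of all genes tested, and to unequal depths. Dnali1, the light intermediate chain of inner arms, was at 59.2 and 51.3 FPKM in wild type and 0.252 and 0.659 FPKM in cKO (log2 fold change -7.19, SE 0.396, adjusted p = 3.84e-05, edgeR). Without cKO replicate 2 its value was -7.94. Dnaic1 and Dnaic2 encode the intermediate chains of the outer arm. Dnaic1 was at 40.2 and 38.0 FPKM in wild type and 0.539 and 0.988 FPKM in cKO, and Dnaic2 was at 9.74 and 5.79 against 0.197 and 0.301 FPKM. Their log2 fold changes were -5.92 (SE 0.286) and -5.20 (SE 0.365). Dnal4, a light chain, kept more of its level, with 14.4 and 14.6 FPKM in wild type and 4.47 and 4.69 FPKM in cKO (31.6% of wild type, log2 fold change -1.88, SE 0.142).

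Dnal1, a light chain that binds the outer arm heavy chain, had the least certain fall, and is described because of the spread between its wild-type libraries. It was at 0.768 and 3.35 FPKM in wild type and 0.578 and 0.501 FPKM in cKO. Wild-type replicate 1 lay near the cKO libraries and wild-type replicate 2 stood far above them. The log2 fold change of -2.13 (SE 0.625, adjusted p = 0.0246, edgeR) became -0.77 without wild-type replicate 2 (adjusted p = 0.0405, edgeR) and -2.83 without wild-type replicate 1. It no longer passed when cKO replicate 2 was left out (adjusted p = 0.0607, edgeR) and with limma-voom (adjusted p = 0.0736). Dnal1 overlaps Pnma1 on the opposite strand over 1368 bases. Pnma1 had 2485 and 2029 counts in wild type and 26 and 21 in cKO. The strand setting of the counting is not given, so Dnal1 may hold some Pnma1 reads or the reverse.

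Docking and attachment factors fell in 5 of 5 cases, against 34.3% of all genes tested. Their median log2 fold change was -5.04. Armc4 (chromosome 18, 7088233 to 7297901), a docking complex component, was at 9.37 and 10.2 FPKM in wild type and 0.0421 and 0.0439 FPKM in cKO. It had 1355 and 1342 counts in wild type against 6 and 5 in cKO, and the log2 fold change was -8.02 (SE 0.238, adjusted p = 1.2e-05, edgeR). Armc4 passed the filter on low counts through wild type alone, so it had to differ. Ccdc151, which binds Ccdc114 in the docking complex, went from 27.3 and 29.5 FPKM in wild type to 0.514 and 0.865 FPKM in cKO (log2 fold change -5.60, SE 0.255). Ttc25, another docking complex gene, went from 13.5 and 11.1 to 0.40 and 0.477 FPKM (log2 fold change -5.04, SE 0.198). Ccdc103, an attachment factor, was at 5.72 and 6.08 FPKM in wild type and kept 0.816 and 0.824 FPKM in cKO (log2 fold change -3.06, SE 0.197). Ccdc114 kept the most of this group, 26.2% of its wild-type level, with 5.34 and 4.63 FPKM against 1.14 and 1.47 FPKM. In wild type, the docking genes thus ran from 4.63 to 29.5 FPKM, and in cKO the order changed, with Ccdc114 highest in both libraries.

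The assembly factors held the most abundant of these mRNAs and the widest range of falls. Dnaaf1 (chromosome 8, 119575235 to 119598454), a leucine-rich repeat protein of arm assembly, was at 253 and 213 FPKM in wild type, the highest level of the 34 genes in both libraries. It was at 1.67 and 2.90 FPKM in cKO (log2 fold change -6.91, SE 0.316, adjusted p = 2.09e-05, edgeR). Zmynd10 (chromosome 9, 107547298 to 107551319), a zinc finger chaperone adaptor, was at 116 and 123 FPKM in wild type and 0.530 and 0.910 FPKM in cKO (log2 fold change -7.62, SE 0.278). Its interaction partner Lrrc6 went from 40.8 and 42.1 to 0.843 and 0.792 FPKM (log2 fold change -5.88, SE 0.175). Pih1d3 (chromosome 1, 31222838 to 31224288), which mouse sperm need for their dynein arms, had 784 and 887 counts in wild type and 4 and 2 in cKO. Its level was 13.0 and 16.2 FPKM in wild type and 0.0672 and 0.0421 FPKM in cKO, and its log2 fold change of -8.18 (SE 0.323) was the largest of the 34 fitted falls. Pih1d3 passed the filter on low counts through wild type alone, so it had to differ.

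The other assembly factors kept more of their RNA. Dnaaf2, a PIH domain co-chaperone, was at 27.6 and 22.5 FPKM in wild type and 5.09 and 6.07 FPKM in cKO (log2 fold change -2.39, SE 0.176). Dnaaf5, a HEAT repeat protein, was at 20.7 and 22.0 FPKM in wild type and 9.68 and 11.1 FPKM in cKO, and its log2 fold change of -1.26 (SE 0.131) was the smallest of the 30 called falls. Dnaaf3 kept 12.7% and Spag1 17.2% of their wild-type levels. With these, 9 of the 30 genes that fell did so by less than 16-fold: Dnah7b, Dnal4, Dnal1, Ccdc103, Ccdc114, Dnaaf2, Dnaaf5, Dnaaf3 and Spag1. Their cKO levels ran from 0.501 to 11.1 FPKM, whereas the 9 genes that fell at least 64-fold were at 0.0421 to 2.90 FPKM in cKO. For Dnaaf2, 37.9% of the 50-base words of its transcript recur in other genes, mainly Gm49383 and Gm49384, which lie on the same strand at the same place and had at most 57 counts in any library. Dnaaf3 overlaps Tnni3 on the same strand, and the Tnni3 counts were 2905 and 2272 in wild type and 5806 and 5099 in cKO.

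Set against each other by role, the falls had similar medians and unequal ranges. Median log2 fold changes were -5.22 for inner arm heavy chains, -5.20 for intermediate and light chains, -5.04 for docking and attachment factors and -4.54 for assembly factors. For the outer arm heavy chains the median of -0.96 is that of Dnah5, since 2 genes fell and 3 did not pass. The 33 protein-coding genes together summed to 1042 and 866 FPKM in wild type and 36.7 and 45.6 FPKM in cKO. Assembly factors made up 47.4% and 53.1% of that sum in wild type and 55.8% and 55.6% in cKO. Outer arm heavy chains made up 18.6% and 13.6% in wild type and 5.51% and 6.01% in cKO. Genes are not replicates, so these role values carry no test. Relative to the summed FPKM of the 12 pachytene markers, the sum of the 33 genes was 0.588 and 0.457 in wild type and 1.19 and 1.05 in cKO. Different genes lead these sums in each group. Dnaaf1 led in wild type (253 and 213 FPKM) and Dnaaf5 in cKO (9.68 and 11.1 FPKM). Of the markers, Ldhc led in wild type (479 and 667 FPKM) and Hspa2 in cKO (11.9 and 14.7 FPKM). The shares and the ratio therefore do not describe the genes one by one.

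Related genes of the axoneme fell as well, and cytoplasmic dynein was mixed. Of all genes tested, 34.3% fell and 29.2% rose. Of 19 tested genes of other arm parts, assembly and the axonemal ruler, 18 fell and 0 rose. Their median was -3.22 on the log2 scale. Nme8, which encodes a thioredoxin domain protein of the outer arm, fell from 14.5 and 15.8 FPKM to 0.0227 and 0.0474 FPKM. Nme8 and Daw1, another of the 18, passed the filter on low counts through their wild-type levels alone, so they had to differ. Wdr63, an inner arm intermediate chain gene, fell from 31.3 and 28.7 to 0.0990 and 0.248 FPKM. All 9 genes of the nexin-dynein regulatory complex, which restrains sliding between doublets, fell, with a median of -6.29. Drc1 went from 52.9 and 49.0 to 0.288 and 0.361 FPKM and Tcte1 from 68.7 and 51.5 to 0.317 and 0.477 FPKM. The 5 genes of cytoplasmic dynein 2, the motor of retrograde intraflagellar transport, all fell, with a median of -1.89. Tctex1d2 fell by 2.94 and Dync2h1, its heavy chain gene, by 2.19 on the log2 scale.

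Cytoplasmic dynein 1 carries cargo in all cells. Of its 20 listed subunit and dynactin genes, 10 fell, 4 rose and 6 did not pass. For comparison, 34.3% of all genes tested fell and 29.2% rose, or 63.4% in either direction. The median over the 20 was -0.50 on the log2 scale. The heavy chain gene Dync1h1 was at 76.0 and 46.4 FPKM in wild type and 48.9 and 56.7 FPKM in cKO, and did not pass (log2 fold change -0.44, SE 0.263, adjusted p = 0.183, edgeR). The intermediate chain gene Dync1i1 rose from 5.35 and 7.33 to 17.8 and 16.7 FPKM and Dynlt3 from 13.2 and 16.7 to 35.2 and 33.8 FPKM. With scaling to Sertoli markers the median of all genes moved by -1.10, which is close to the size of these rises. Dynlrb2, a roadblock light chain gene, fell from 18.9 and 20.2 FPKM to 0.306 and 0.153 FPKM, and it too passed the filter through wild type alone. Dynlt1b fell from 143.9 and 160.3 to 33.4 and 34.1 FPKM.

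**Figure D3:**
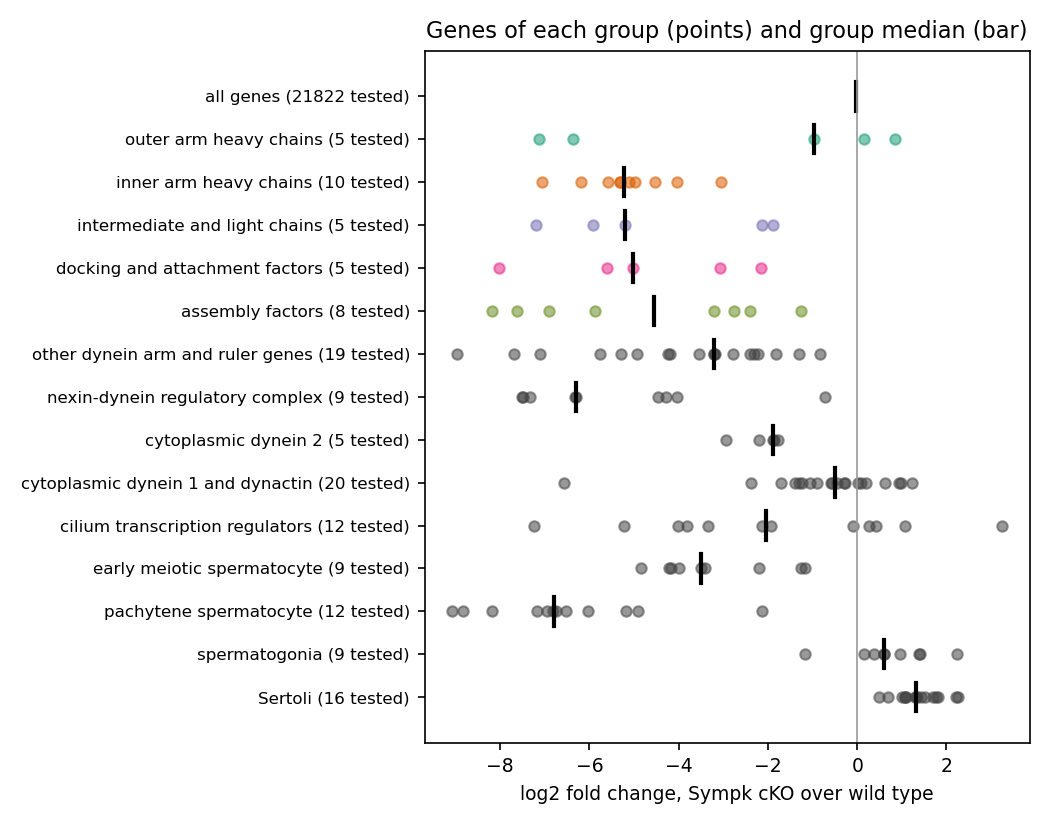
Log2 fold changes of cKO over wild type for the genes of each group (1 point per tested gene) with the group median as a bar; the top line gives the median of all genes. The bars of the axonemal groups, apart from the outer arm heavy chains, lie between -6.29 and -3.22. Those of cytoplasmic dynein 1, spermatogonial and Sertoli lists are at -0.50, 0.61 and 1.33.

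Of 12 tested transcription regulators of ciliary and meiotic genes, 7 fell, 1 rose and 4 did not pass. With 63.4% of all genes called in either direction, a count of 8 called among 12 is near the background. Rfx2, a ciliary regulator of spermatogenesis, fell from 81.4 and 66.0 to 1.67 and 3.01 FPKM, and the related Rfx4 from 11.4 and 10.3 to 0.0448 and 0.128 FPKM. Foxj1, the master regulator of motile cilia, fell from 3.84 and 2.79 to 0.874 and 1.15 FPKM. Rfx1 and Rfx3 did not pass, with log2 fold changes of 0.43 and 0.26. Mybl1 fell by 2.13 on the log2 scale. Gmnc, which acts early in multiciliated cell formation, was the gene that rose, from 5 and 7 counts to 69 and 57. Multiciliated cells of the efferent ducts are another possible source of axonemal RNA at the edge of the testis. A list of 8 efferent duct genes was low in every library. It includes Pax8, Slc9a3, Aqp1 and Esr1, which are not particular to multiciliated cells, so its values do not measure these cells alone. The 8 genes summed to 3.71 and 3.76 FPKM in wild type and to 7.48 and 6.23 FPKM in cKO. Of the 7 tested, 4 rose, 1 fell and 2 did not pass, where 29.2% of all genes tested rose and 34.3% fell. None of the 8 was at 0, and Mcidas, which sets the multiciliated fate, was at 0.111 and 0.0223 FPKM in wild type and 0.0410 and 0.0257 FPKM in cKO. The part of multiciliated cells in the levels of Dnah5, Dnah9 and Dnah11 was not tested.

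Wild-type replicate 1 was above wild-type replicate 2 for all 15 heavy chains, which have long transcripts. The ratio of the wild-type libraries in FPKM ran from 1.27 to 2.66 for the heavy chains, whose lengths were 12227 to 21222 bases. For the 18 other protein-coding genes, replicate 1 was higher for 9, with a median ratio of 1.02. Across all genes with at least 1 CPM in wild type, the median ratio rose with length, from 0.863 under 2000 bases (3360 genes) to 1.14 at 15000 bases or more (1258 genes). Between the cKO libraries the matching medians were 0.957 and 0.968. The cytoplasmic chain Dync1h1, also long, showed the same order of the wild-type libraries. These library differences were small beside the falls: without wild-type replicate 1 the median log2 fold change of the inner arm heavy chains was -4.96, and without wild-type replicate 2 it was -5.45. In cKO, replicate 2 was above replicate 1 in FPKM for 26 of the 30 genes that fell. The pachytene markers were also higher in cKO replicate 2 (43.5 against 30.7 FPKM summed). Among all genes with at least 1 CPM in cKO, the median ratio of replicate 1 to replicate 2 was also below 1 in every length range (0.954 to 0.968). Any link between these differences was not tested.

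**Figure D4:**
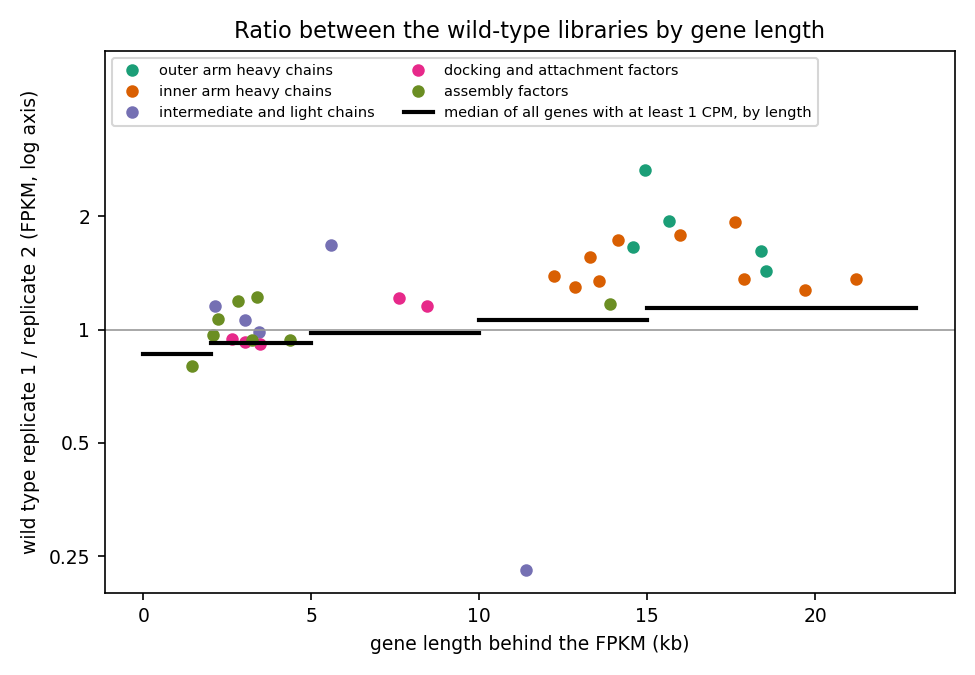
Ratio of wild-type replicate 1 to wild-type replicate 2 in FPKM (log axis) against the gene length behind the FPKM, 1 point for each of the 33 protein-coding genes, with the median of all genes in 5 length ranges as black lines. The heavy chains, at the right, lie between 1.27 and 2.66, above the black lines, and Dnal1 is at 0.229.

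The antisense RNA Dnah2os lies on the plus strand within Dnah2, over 5129 bases of it. It had 7 and 17 counts in wild type and 22 and 24 in cKO, or 0.196 and 0.524 against 0.625 and 0.854 FPKM. The fitted value of 0.82 (log2, SE 0.534) missed the threshold (adjusted p = 0.22, edgeR). It turned to -0.27 with scaling to Sertoli markers, and ran from 0.28 without wild-type replicate 1 to 1.62 without wild-type replicate 2 (adjusted p = 0.0814, edgeR). Since the strand setting of the counting is not given, its reads cannot be told apart from those of Dnah2.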

How the data were processed

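HISAT2 and the build GRCm38 are named in the submitters' processing notes. How genes were counted, on which strand and with which annotation is not given in the sources used here. Per the labels' protocols, total RNA was made into paired-end TruSeq libraries with random primers. The authors deposited whole-number counts per gene and FPKM values. For each of 12705 genes with over 100 counts in every library, count and FPKM implied 1 gene length in the 4 libraries within 0.01%, taking the library total as the sum of counts. FPKM served to compare levels and counts served for the tests.

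Replicates differed well beyond sampling noise (chi-square per gene 51.1 in wild type and 24.2 in cKO), so all 4 were kept as separate samples. Counts were filtered with filterByExpr (10 counts, about 0.254 CPM, in 2 libraries), scaled with TMM factors and tested with edgeR 4.0.16 in R 4.3.3 (genotype only, two-sided, Benjamini-Hochberg over all genes tested, threshold 0.05). The test was checked on simulated data. False calls exceeded the share that the threshold allows when each gene had its own dispersion. The simulated data held far fewer changed genes than were called here, so how far that result carries over was not tested. Which dispersions hold for these libraries was not tested, so calls close to the threshold are less sure. Alternatives were RLE factors, library totals, Sertoli marker scaling, DESeq2 1.42.0, limma-voom (limma 3.58.1), no filter, a mean of at least 5 CPM, a replicate block and each library left out. Leaving out mitochondrial genes and a crossed block were chosen after seeing the data.

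The genes and lists were chosen with earlier results of these data known. Library values are given for up to 4 genes per role with the highest wild-type FPKM, for genes that rose or did not pass and for the largest changes. Other genes were described after their values were seen. From the other lists, up to 2 called genes with the largest change in each direction and a mean of at least 5 CPM are named. Foxj1, Mybl1, Gmnc and Mcidas are given for their roles. Of the listed symbols 6 had no row, 5 of them aliases of other listed symbols. All 34 IDs matched GENCODE M21 (GRCm38). Overlaps with other genes were found for 24 of the 34.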

Additional observations from a re-analysis of the deposited data

How the results depend on the processing

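The 30 falls held their direction under every alternative run, and 29 of them kept an adjusted p below 0.05 throughout wherever they were tested. The exception was Dnal1 (-1.78 with limma-voom, adjusted p = 0.0736; -1.98 without cKO replicate 2, adjusted p = 0.0607, edgeR). Over 471 comparisons of a single gene with an alternative, 462 kept direction and side of the threshold.

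Scaling to the Sertoli marker list moved the median of all genes from -0.02 to -1.13, calling 13016 genes lower and 565 higher in place of 7477 and 6368. The median of the 34 genes then moved to -6.18, that of outer arm heavy chains to -2.06 with 4 called lower, of inner arm heavy chains to -6.32, of intermediate and light chains to -6.31, of docking and attachment factors to -6.14 and of assembly factors to -5.65. Dnah9 (-0.97), Dnah11 (-0.26) and Dnah2os (-0.27) changed sign there. The shift follows from the construction of that scale. The difference between the median of the 34 genes and that of all genes was -5.06 on the TMM scale and -5.05 on the Sertoli scale. Library totals alone moved the median of all genes to 0.20 and called 6423 genes lower and 7651 higher, with 30 of the 34 genes lower.

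A mean of at least 5 CPM left 13299 genes, 4620 of them lower. It kept 29 of the 34 genes, all called lower, and 2 outer arm heavy chains with a median of -6.70, because fewer genes were tested.

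With each library left out, the count of genes lower ran from 29 to 31 and of genes higher from 0 to 1 (Dnah11, without wild-type replicate 1). The median of the outer arm heavy chains, which is that of Dnah5, ran from -1.40 to -0.38. Dnah9 ran from -0.13 without wild-type replicate 2 to 0.45 without wild-type replicate 1. Where 1 library stood for a group, its spread was taken from the other group. The log2 difference of the outer arm ratio ran from -6.58 to -6.43, and with summed counts it was -6.53.

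The replicate numbers only name samples here. Deviations of same-numbered libraries correlated at -0.11 over genes, and a replicate block called 6937 genes lower and 5632 higher, with 30 of the 34 genes lower. A crossed block called 7267 lower and 6145 higher, again with 30 of the 34 lower.

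Depth limits the genes with few reads: Dnah5, Dnah9, Dnah11 and Dnah2os had 7 to 141 counts per library, and Dnah3, Armc4 and Pih1d3 had 2 to 6 counts per cKO library.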
